A study of Bos taurus and Sus scrofa with 6 samples.

Results

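ZBTB16, SALL4, ETV5, ID4, DMRT1 and DMRTB1 are transcription factors, or in the case of ID4 a transcriptional inhibitor, that are known from work in rodents as regulators or markers of spermatogonia, the mitotic germ cells at the base of the seminiferous epithelium. The 6 genes were taken by their symbols from the gene tables of single-cell RNA libraries of prepubertal testis from 3 Holstein cattle of 4.5 months and 3 mixed breed pigs of 3 months. All 6 genes were found among 22694 listed pig genes, and 5 among 19994 listed cattle genes, since ID4 was not found by its symbol in cattle and was not analysed there. None of the animals was treated, and each testis was collected by castration, dissociated into single cells and run as 1 droplet library. The sample titles gave a pair of libraries in each species 1 testis number although their other tags named different animals, and the study's methods describe 3 different animals per species. Each library was therefore counted as 1 animal (cattle 1 to 3, pig 1 to 3).

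Spermatogonia either renew themselves or differentiate, and they leave mitosis when retinoic acid starts the meiotic programme. ZBTB16 (also called PLZF), SALL4 and ETV5 are known to keep the undifferentiated pool, ETV5 as a target of the GDNF signal from Sertoli cells, and ID4 blocks basic helix-loop-helix factors and marks stem cells in the mouse. DMRT1 holds back meiotic entry in spermatogonia and also maintains the male identity of Sertoli cells, while its relative DMRTB1 (also called DMRT6) acts when differentiating spermatogonia turn to meiosis.

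The pig promoters of ZBTB16, ETV5 and DMRT1, 3 of the 4 genes that were lower in early meiotic-like germ cells, are shown here because each of them was called lower at that step, given below. Each is the 250 bases upstream of the RefSeq start on Sscrofa11.1, 5′ to 3′ on the strand of the gene, with capitals at matches of 4 motifs on either strand. The E-box, bound by basic helix-loop-helix factors of the kind that ID4 blocks, was searched as CANNTG. The ETS core, the kind of site that ETV5 binds, was searched as CCGGAAG in full. The GC box was searched as GGGCGG, and the CCAAT box by the letters of its name.
ZBTB16 (chr9:41639286-41639535, plus strand): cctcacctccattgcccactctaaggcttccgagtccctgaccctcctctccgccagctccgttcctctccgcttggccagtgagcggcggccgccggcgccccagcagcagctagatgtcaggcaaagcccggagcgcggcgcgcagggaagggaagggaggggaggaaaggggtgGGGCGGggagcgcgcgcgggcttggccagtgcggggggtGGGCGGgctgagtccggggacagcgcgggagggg
ETV5 (chr13:123930293-123930542, minus strand): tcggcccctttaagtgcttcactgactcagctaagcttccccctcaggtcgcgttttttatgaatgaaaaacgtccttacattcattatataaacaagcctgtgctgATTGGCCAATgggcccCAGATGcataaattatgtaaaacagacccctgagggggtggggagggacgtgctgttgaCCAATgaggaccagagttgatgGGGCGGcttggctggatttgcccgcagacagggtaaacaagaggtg
DMRT1 (chr1:220953443-220953692, minus strand): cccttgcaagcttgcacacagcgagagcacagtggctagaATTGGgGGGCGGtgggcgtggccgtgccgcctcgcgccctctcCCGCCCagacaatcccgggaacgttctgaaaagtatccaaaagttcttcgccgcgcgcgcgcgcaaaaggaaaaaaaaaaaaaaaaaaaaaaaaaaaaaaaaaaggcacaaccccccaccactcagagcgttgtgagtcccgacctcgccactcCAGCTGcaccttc
In the ETV5 sequence 2 CCAAT boxes, 1 on each strand, stand back to back and form 1 run of capitals. The E-box was present in the ETV5 and DMRT1 windows and in 61.9% of 19556 pig promoter windows of the same length, and the GC box was present in the ZBTB16, ETV5 and DMRT1 windows and in 45.9% of all windows. The CCAAT box was present in ETV5 (3 matches) and DMRT1 against 31.9% of all windows, and the ETS core was in none of the 3 and in 7.77% of all windows. The DMRTB1 window held 1 E-box, and the ID4 window held 4 GC boxes and 2 CCAAT boxes. These matches describe the letters and no binding was measured.

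The 6 genes lay on 6 chromosomes of the pig. ZBTB16 spans chr9:41639536-41839254 and overlaps 2 long non-coding RNA genes on its own strand. DMRTB1 spans chr6:158794954-158803931 with 1 long non-coding RNA gene on the opposite strand. Whether reads of these neighbours changed the counts was not tested. ETV5 spans chr13:123873346-123930292, DMRT1 chr1:220841485-220953442 and ID4 chr7:15281535-15284895, with no annotated overlap.

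After filtering, 3444, 8138 and 5900 cells of the cattle and 3162, 3808 and 2236 of the pigs remained, with a median of 789 to 4461 UMIs (unique molecular identifiers, counted molecules) per cell in cattle and 890 to 5870 in pig. Clusters were named from marker genes of 7 cell types, and none of the 6 genes entered the clustering or the markers. Germ-like cells numbered 83, 219 and 218 in cattle and 638, 215 and 693 in pig, and 11 germ cell markers passed in the single cattle cluster and 5 to 8 in each of the 5 pig clusters. Pig 2 also held most (95.01%) of a cluster of 341 cells that was led by germ cell genes such as UCHL1 and ELAVL2 but scored highest for myoid markers, and that cluster was left unnamed and stands among the other cells. Any 2 libraries of a species shared 22 to 61 cell barcodes in cattle and 9 to 17 in pig.

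In both species the germ-like cells carried more SALL4 than the rest of the testis. ZBTB16, ETV5 and DMRTB1 were also called higher in germ-like cells of cattle, and DMRT1 in those of pig. The DMRTB1 call rests on 10 UMIs in all, the least that the filter allowed. A call in 1 species alone does not show that the species differ, and by the test of that difference, given below, DMRT1 was called and ZBTB16, SALL4, ETV5 and DMRTB1 were not. In cattle 4 of the 5 members were called higher in germ-like cells than in the rest of the testis (edgeR, quasi-likelihood test on sums per animal), where 23.1% of 14200 tested genes were called higher. In pig 2 of the 6 members were called higher, against 16.8% of 15217 genes. None was called lower in either species. These fits did not pair the sums of an animal. With the animal as a replicate block, which pairs them, ETV5 was also called higher in pig, where 3287 of 15217 genes were. Levels are given as CPM, the UMIs of a gene per 1000000 UMIs of the summed cells, fold changes are on the log2 scale with their standard error (SE), and a call needed a Benjamini-Hochberg adjusted p under 0.05 over all genes tested.

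**Figure D1:**
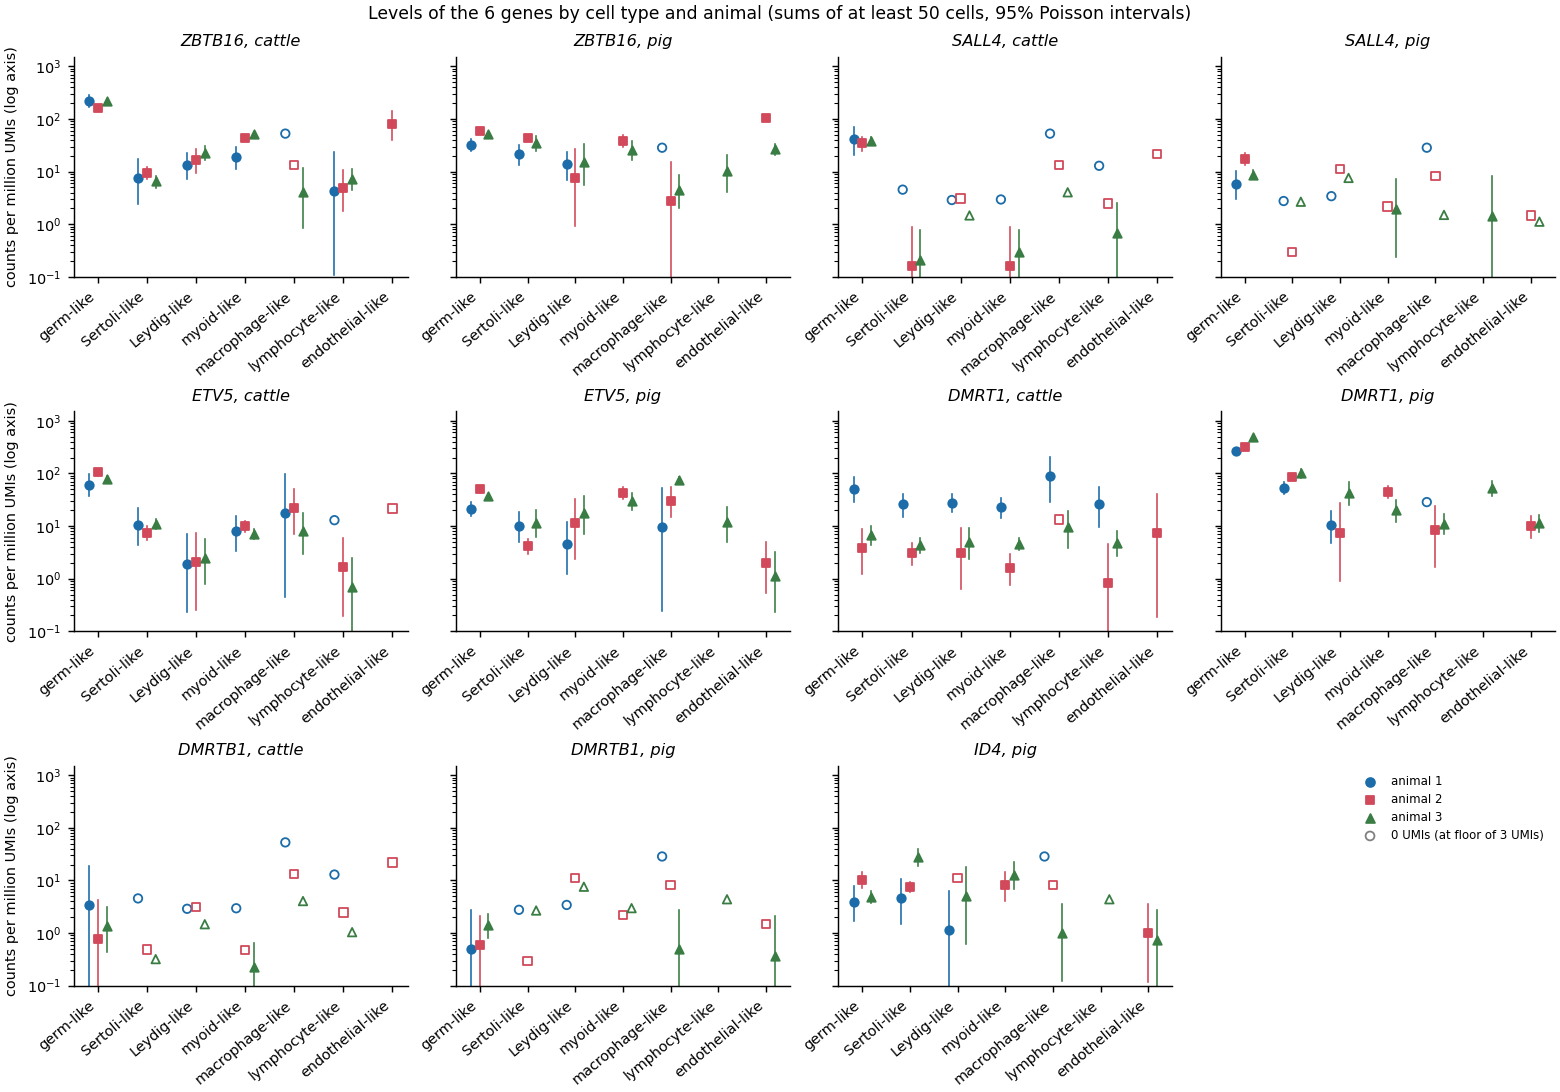
Level of each gene (CPM, log axis) in each named cell type, 1 point per animal for sums of at least 50 cells, with 95% Poisson intervals that cover counting error only; open symbols mark 0 UMIs and stand at the level of 3 UMIs. SALL4 stands above all somatic sums with UMIs in both species, ZBTB16 is highest in germ-like cells of cattle but in endothelial-like cells of pig 2, and DMRT1 in cattle 1 is raised in every cell type.

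ZBTB16, a zinc finger repressor, had 1102 UMIs over the 520 germ-like cattle cells and 852 over the 1546 germ-like pig cells, and was called higher in the germ-like cells of cattle. The difference in fold change between the species was not itself called (pig minus cattle -1.39, SE 0.61, edgeR adjusted p = 0.14), though it was under 2 alternatives given below. Its level was 222, 164 and 220 CPM in germ-like cells of cattle 1 to 3 (mean 202 ± 33.1, SD, n = 3) and 13.4, 24.2 and 28.7 CPM in all other cells. Each germ-like sum stood above every other-cell sum, and the log2 fold change was 2.04 (SE 0.31, edgeR adjusted p = 0.000584). In pig the levels were 32.5, 59.3 and 50.9 CPM in germ-like cells (47.6 ± 13.7) and 15.04, 49.4 and 17.7 CPM in the others. The pig ranges overlapped because of the other cells of pig 2, and the log2 fold change of 0.45 (SE 0.45, edgeR adjusted p = 0.458) was not called.

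A ZBTB16 UMI was found in 38.6%, 57.1% and 75.7% of the germ-like cells of cattle 1 to 3, in the order of the median depth of these cells (3514, 6172 and 16908 UMIs). After every cell was thinned to 1000 UMIs the shares were 11.8%, 15.1% and 18.3%. In Sertoli-like cells, taken as the background (median 1227.5, 2702 and 6257 UMIs), the shares were 0.988%, 2.36% and 4.15% before thinning and 0.971%, 1.07% and 0.226% after it. In pig the thinned shares were 3.06%, 5.12% and 2.60% in germ-like cells and 3.01%, 4.55% and 2.84% in Sertoli-like cells, so the 2 cell types did not separate by ZBTB16 detection.

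SALL4, a zinc finger factor of the undifferentiated state, was nearly confined to germ-like cells by its counts. In cattle it had 12, 45 and 141 UMIs in germ-like cells, or 40.9, 34.3 and 37.8 CPM (37.7 ± 3.34), and 0, 3 and 9 UMIs in all other cells. The 3 cattle agreed closely, and the log2 fold change was 6.13 (SE 0.50, edgeR adjusted p = 2.38e-05). In pig the germ-like cells had 12, 60 and 101 UMIs, or 5.91, 17.6 and 8.80 CPM (10.8 ± 6.10). The other pig cells had 0, 18 and 3 UMIs, and all 18 of pig 2 lay in unnamed cells. The log2 fold change in pig was 3.72 (SE 0.78, edgeR adjusted p = 0.0069), and it was 5.81 against the other cells of named clusters only. SALL4 was not detected in 3643 pig Sertoli-like cells, whereas 1.88%, 19.5% and 9.52% of the pig germ-like cells held a UMI. In 2266 Sertoli-like cells of pig 2, at a median of 3932.5 UMIs, a count of 0 allows up to 0.132% of cells with a UMI, which does not limit the share of cells that express the gene at this depth. In barcodes of at most 50 UMIs, which hold mostly free RNA and are kept in the cattle files, SALL4 had 1.97, 1.22 and 2.41 CPM.

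ETV5, an ETS family factor downstream of GDNF, was present in germ-like cells of every animal. In cattle it reached 61.4, 104 and 79.8 CPM in germ-like cells (81.8 ± 21.5) and 5.90, 7.81 and 7.39 CPM in the others. The groups stood far apart, with a log2 fold change of 2.42 (SE 0.29, edgeR adjusted p = 0.00015). In pig it reached 21.2, 50.2 and 37.1 CPM in germ-like cells (36.2 ± 14.5) and 7.73, 9.83 and 23.4 CPM in the others. The other cells of pig 3 were above the germ-like cells of pig 1, and the log2 fold change of 1.02 (SE 0.47, edgeR adjusted p = 0.117) was not called. With the animal as a replicate block it was 1.13 (SE 0.34, edgeR adjusted p = 0.0206) and was called, and without pig 3 it was 1.61 (edgeR adjusted p = 0.0454). ETV5 was high in macrophage-like cells of pig 3, described with the somatic cells.

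ID4, the inhibitor of basic helix-loop-helix factors, had few UMIs in pig and did not separate germ-like cells from the rest. It had 8, 35 and 56 UMIs in germ-like cells, or 3.94, 10.3 and 4.88 CPM (6.36 ± 3.42), against 2.58, 6.13 and 5.84 CPM in all other cells. In pig 3 the germ-like level was below that of the other cells, and the log2 fold change was -0.02 (SE 0.53, edgeR adjusted p = 0.984). The sign of this difference turned to 0.35 when libraries were scaled by size alone. ID4 UMIs were found in 1.25%, 14.9% and 7.22% of the germ-like cells and in 0.429%, 3.35% and 12.3% of the Sertoli-like cells, and after thinning to 1000 UMIs the order differed between animals (0.509%, 1.40% and 0.577% against 0%, 0.927% and 4.74%).

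DMRT1, the DM domain factor that restrains meiosis, was high in pig germ-like cells, and in cattle its difference from the other cells was not resolved. In pig it had 551, 1064 and 5548 UMIs in germ-like cells, or 271, 312 and 483 CPM (356 ± 112). The other cells stood at 34.4, 72.9 and 27.6 CPM. Every germ-like sum exceeded every other-cell sum, and the log2 fold change was 2.66 (SE 0.43, edgeR adjusted p = 0.00247). When a cluster's markers were set against the mean of the remaining cells instead, 997 cells were named germ-like in place of 1546. Cells named germ-like by the main rule then stood among the other cells. The DMRT1 fold change was 0.68 (edgeR adjusted p = 0.291) and was not called. Thinned to 1000 UMIs, 19.4%, 23.3% and 36.5% of the pig germ-like cells held a DMRT1 UMI against 4.68%, 8.74% and 9.48% of the Sertoli-like cells.

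In cattle DMRT1 had 15, 5 and 25 UMIs in germ-like cells, or 51.2, 3.81 and 6.70 CPM. The other cells stood at 27.2, 2.28 and 4.65 CPM. Cattle 1 was the high animal in both, and barcodes of at most 50 UMIs showed the same order with 17.7, 2.44 and 6.02 CPM. The log2 fold change was -0.75 (SE 1.12, edgeR adjusted p = 0.605), and it was 0.40 when libraries were scaled by size alone. A difference of DMRT1 between germ-like and other cells was therefore not detectable in cattle at this depth, and the part of free RNA in the cattle values was not tested.

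DMRTB1, the DM domain factor of the switch to meiosis, was at the edge of detection. Cattle germ-like cells had 1, 1 and 5 UMIs and all other cells had 3, of cattle 3, in myoid-like cells. It was called higher in cattle germ-like cells (log2 fold change 3.21, SE 1.02, edgeR adjusted p = 0.0257), with a pooled ratio of 20.7 and an exact counting interval of 4.73 to 124. Its 10 UMIs over all cattle cells just met the filter of 10 counts, and most were germ-like. With any 1 animal left out it fell below that filter, so the call could not be checked in that way. DESeq2 did not call it (adjusted p = 0.067). Pig germ-like cells had 1, 2 and 16 UMIs and the others had 2, a pooled ratio of 15.3 (interval 3.70 to 136), and this was not called (log2 fold change 3.03, SE 1.18, edgeR adjusted p = 0.0692).

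**Figure D2:**
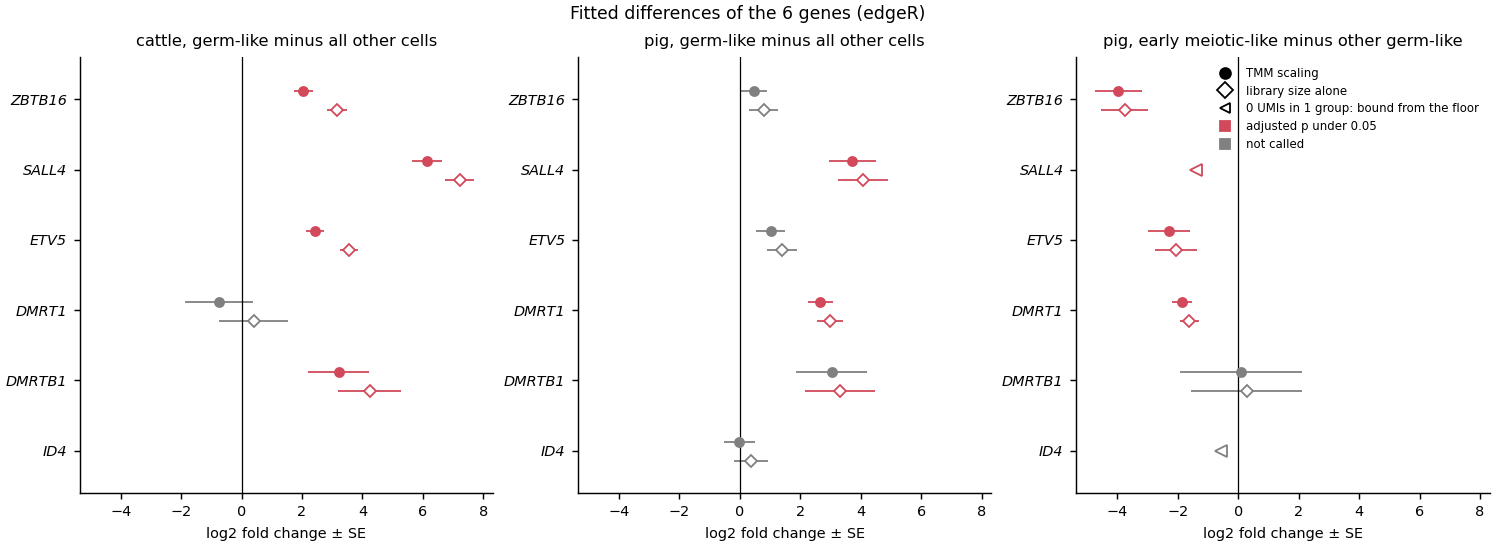
Log2 fold change of each gene with its SE (horizontal bars) in 3 comparisons, with TMM scaling (circles) and library size alone (diamonds); red marks an adjusted p under 0.05, and triangles stand at the bound given by 3 UMIs where 1 group had none. SALL4 is called higher in both species and DMRT1 in pig, and ZBTB16, SALL4, ETV5 and DMRT1 lie to the left in the early meiotic-like comparison.

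The scaling matters for these fold changes, because germ-like cells differ from the rest in many genes. The median log2 fold change over all genes was -0.17 in cattle and -0.08 in pig with the trimmed mean of M-values (TMM), and 0.94 and 0.27 with library size alone. With TMM 3286 genes were higher and 3794 lower in cattle, and with library size alone 6248 and 1826; in pig the counts were 2559 and 3088 against 3584 and 2276. ZBTB16, SALL4 and ETV5 in cattle and DMRT1 and SALL4 in pig were called higher under both scalings, and DMRTB1 in pig was called only with library size alone (adjusted p = 0.0497).

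Within the pig germ line, 4 of the 6 members were lower in early meiotic-like cells than in the other germ-like cells. Germ-like cells were clustered again, and 2 subclusters of 147 cells in all (55, 7 and 85 in pigs 1 to 3) were named early meiotic-like because their meiotic genes, such as DMC1 for strand exchange and the synaptonemal complex genes, were raised. Pigs 1 and 3 had enough cells for the test, and 7.84% of 13310 genes were called lower. The remaining germ-like cells were described in 2 further classes that were set after their values were seen and carry no test: spermatogonial-leaning (419, 201 and 299 cells) and intermediate (164, 7 and 309 cells). A subcluster was put in the intermediate class where its meiotic genes averaged a higher fold than its spermatogonial markers. The largest of these, of 223 cells, passed 0 markers of either list, so the name does not establish a stage between the other 2. UCHL1, a spermatogonial marker used in naming, had 764, 596 and 678 CPM in spermatogonial-leaning cells of pigs 1 to 3. It had 325, 117 and 103 CPM in intermediate and 8.14, 38.4 and 11.8 CPM in early meiotic-like cells. UCHL1 was among the markers that split the first 2 classes, and the early meiotic-like class was named from meiotic genes alone. Stage markers were allowed in the clustering, so this order is no independent result.

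ZBTB16 stood at 45.7, 61.0 and 79.8 CPM in spermatogonial-leaning cells of pigs 1 to 3, at 10.1, 32.0 and 16.2 CPM in intermediate cells, and at 0, 0 and 3.93 CPM (3 UMIs) in early meiotic-like cells. Each animal had its highest measured level in the spermatogonial-leaning cells. The 0s in early meiotic-like cells of pigs 1 and 2 have floors, at 3 UMIs, of 24.4 and 57.5 CPM. Both floors are above the intermediate level of the same animal, so the lowest rank was resolved in pig 3 alone. The early meiotic-like level of pigs 1 and 3 together was 15.1-fold lower than that of their other germ-like cells (exact counting interval 5.13 to 73.2), and the fitted log2 fold change was -3.96 (SE 0.77, edgeR adjusted p = 1.36e-05).

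SALL4 and ID4 followed ZBTB16 at lower counts. SALL4 had 9.14, 18.4 and 15.5 CPM in spermatogonial-leaning cells and only 2 UMIs, in pig 3, in the 480 intermediate cells. No SALL4 UMI was found in the early meiotic-like cells, where 113 were counted in the other germ-like cells of pigs 1 and 3, so the level was at least 2.63-fold lower against a floor of 3 UMIs over the group (edgeR adjusted p = 0.0272). ID4 had 5.33, 10.7 and 8.59 CPM in spermatogonial-leaning cells, 1, 0 and 1 UMIs in intermediate cells and none in early meiotic-like cells. Against 64 UMIs in the other germ-like cells of pigs 1 and 3 the ID4 level was at least 1.49-fold lower, and it was not called (edgeR adjusted p = 0.0964). With all 3 animals, an alternative chosen after seeing the data, ID4 was called (edgeR adjusted p = 0.0423).

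ETV5 was already low in the intermediate class. It stood at 30.5, 51.2 and 63.1 CPM in spermatogonial-leaning cells and at 5.04, 0 and 3.48 CPM in intermediate cells. In early meiotic-like cells it had 0, 4 and 7 UMIs (0, 76.7 and 9.18 CPM), the 4 UMIs coming from 7 cells of pig 2. The log2 fold change in pigs 1 and 3 was -2.28 (SE 0.69, edgeR adjusted p = 0.0119), and with all 3 animals it was -1.76 (SE 0.66, edgeR adjusted p = 0.0781) and was not called. DESeq2 did not call it either (adjusted p = 0.126).

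DMRT1, summed by class, was highest in the intermediate class, unlike the members above. Its levels were 201, 311 and 362 CPM in spermatogonial-leaning cells, 466, 491 and 721 CPM in intermediate cells and 81.4, 76.7 and 157 CPM in early meiotic-like cells. Pigs 1 and 3 showed this order, and pig 2 did so from only 7 cells in each of the last 2 classes. The difference between the first 2 classes, which were set after the values were seen, was not tested. The intermediate cells of pig 1 lay in 1 subcluster (162 of 164 cells, 469 CPM) and those of pig 3 in 2 others (217 cells with 758 CPM and 92 cells with 606 CPM), so the class does not hold the same subclusters in these animals. The spermatogonial-leaning class was also mixed: a subcluster of 59 cells, 50 of them from pig 3, had 614 CPM of DMRT1 with only 0.833 CPM each of SALL4 and ID4, and the cell cycle genes CDK2 and CCNB1 were among its leading genes. The early meiotic-like cells of pigs 1 and 3 were lower than their other germ-like cells by a log2 fold change of -1.86 (SE 0.34, edgeR adjusted p = 3.18e-06), and DESeq2 called this too (adjusted p = 0.00323). In pig 3 the subcluster led by RAD51AP2 and DMC1 kept 244 CPM of DMRT1 (99 UMIs, 51 cells), and the one led by PHF7 and TEX101 had 58.7 CPM (21 UMIs, 34 cells). In pig 1 the same pair had 74.8 and 84.6 CPM, from 3 and 7 UMIs only.

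DMRTB1 had 1 UMI in the early meiotic-like cells of pigs 1 and 3 and 16 in their other germ-like cells, a pooled ratio of 0.895 with an exact counting interval of 0.0213 to 5.76, so no difference was detectable at this depth (fitted log2 fold change 0.08, SE 2.02, edgeR adjusted p = 0.987). TEX101 and LY6K, surface protein genes of the meiotic list, were at 2043 and 3410 CPM for pig 1 and at 1386 and 2126 CPM for pig 3 in early meiotic-like cells but at 76.7 and 38.4 CPM in the 7 cells of pig 2, whose values therefore may not belong to the same stage. When cells were sorted by a cutoff of 5 meiotic UMIs per 10000 instead of by subcluster, 0 of the 6 members were called, as were only 5 genes in all (612 at an unadjusted p under 0.05, edgeR), and 283 pig germ-like cells lay within 1 of that cutoff. The cutoff put 1070 of the 1546 pig germ-like cells in the high group, against 147 early meiotic-like cells. It therefore does not compare the same stages.

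**Figure D3:**
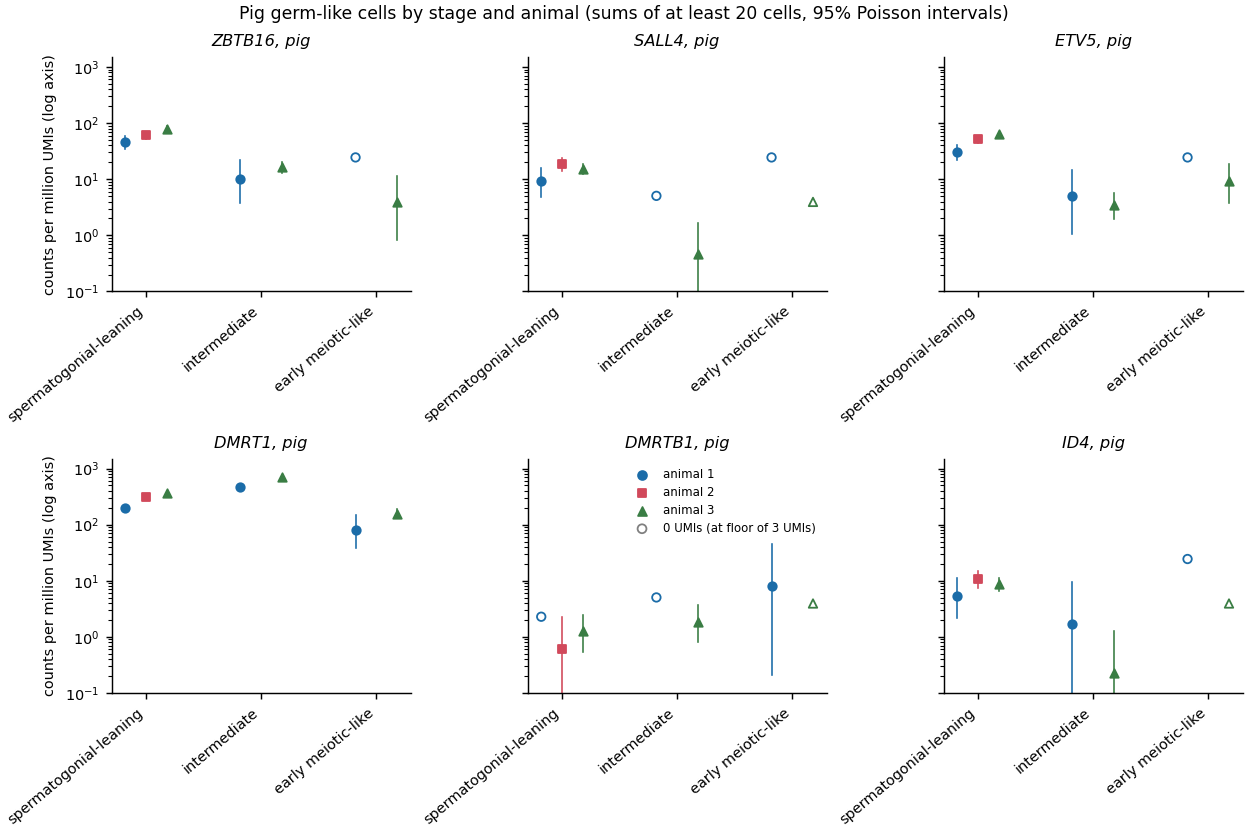
Level of each gene (CPM, log axis) in 3 classes of pig germ-like cells, 1 point per animal for sums of at least 20 cells, with 95% Poisson intervals for counting error only; open symbols mark 0 UMIs at the level of 3 UMIs. Among sums with UMIs, ZBTB16, SALL4, ETV5 and ID4 stand highest in spermatogonial-leaning cells. DMRT1 stands highest in the intermediate class (466 and 721 CPM in pigs 1 and 3). The open symbols of SALL4 and ID4 in early meiotic-like cells of pig 1, at 24.4 CPM, stand above its spermatogonial-leaning points, so that depth cannot show a fall.

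In cattle no subcluster of germ-like cells met the meiotic rule, so the members could only be described over 9 subclusters without a stage test. ZBTB16 varied from 75.1 to 374 CPM over the pooled subclusters. PIWIL4 is a PIWI protein gene and 1 of 14 spermatogonial stage markers listed. The 101 cells of the subcluster with the highest PIWIL4 had 79.3 CPM of ZBTB16 in cattle 2 and 72.6 in cattle 3. The subcluster next to it in PIWIL4 had 104 and 98.1 CPM. These 2 subclusters also had the highest pooled KIT (62.8 and 101 CPM) and STRA8 (109 and 126 CPM), a gene of the meiotic list. Their pooled UCHL1 was 754 and 810 CPM, where the others ranged from 585 to 1823. PIWIL4 alone therefore does not place these cells at an early stage. The subclusters with the least PIWIL4 (25.2 and 24.6 CPM pooled) held 177 CPM of ZBTB16 in 40 cells of cattle 2 and 226 CPM in 25 cells of cattle 3. Both would be intermediate by the rule used in pig, and 4 and 5 meiotic genes passed in them. So would a subcluster of 50 cells with 165 CPM of ZBTB16 pooled, in which 0 passed. The highest ZBTB16 of cattle 2 and 3, 249 and 381 CPM, lay in a further subcluster each, with 35.9 and 38.8 CPM of PIWIL4 pooled. ETV5 went the other way in those cells, with 183 and 97.4 CPM in the first PIWIL4-rich subcluster of cattle 2 and 3 against 48.6 CPM (cattle 2) and 61.9 CPM (cattle 3) in the subclusters with the least PIWIL4 and 79.7 and 69.7 CPM in those with the highest ZBTB16.

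The pig subcluster with the most PIWIL4 (77.5, 139 and 120 CPM, in 110, 76 and 51 cells) had the highest pooled ID4 level, 18.8 CPM, with 12.9, 25.5 and 11.07 CPM in pigs 1 to 3 from 3, 24 and 7 UMIs. It carried little ZBTB16 for spermatogonial-leaning cells, 8.61, 31.9 and 20.6 CPM, and little DMRT1, 64.6, 166 and 108 CPM. ETV5 was 38.8, 53.2 and 53.8 CPM there, and SALL4 was 17.2, 17.0 and 14.2 CPM. The stage markers did not all go with PIWIL4 there. Pooled UCHL1 was 263 CPM, against 435 to 1204 in the other spermatogonial-leaning subclusters, and UTF1 was 77.0 CPM against 17.5 to 43.0. ZBTB16 was thus below the level of all germ-like cells of the same animal in these PIWIL4-rich subclusters of cattle 2 and 3 and of pigs 1 to 3. ETV5 stood above the germ-like level of its animal in the pig subcluster (21.2, 50.2 and 37.1 CPM in all germ-like cells). That level includes the intermediate cells, which held little ETV5. Set against the spermatogonial-leaning class of its animal, given above, ETV5 in the pig subcluster was higher in pig 1, near in pig 2 and lower in pig 3. Another spermatogonial-leaning subcluster of pig 3 (185 cells) had 74.3 CPM of ETV5. These subclusters were picked after their values were seen, and the differences are given with no test.

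**Figure D4:**
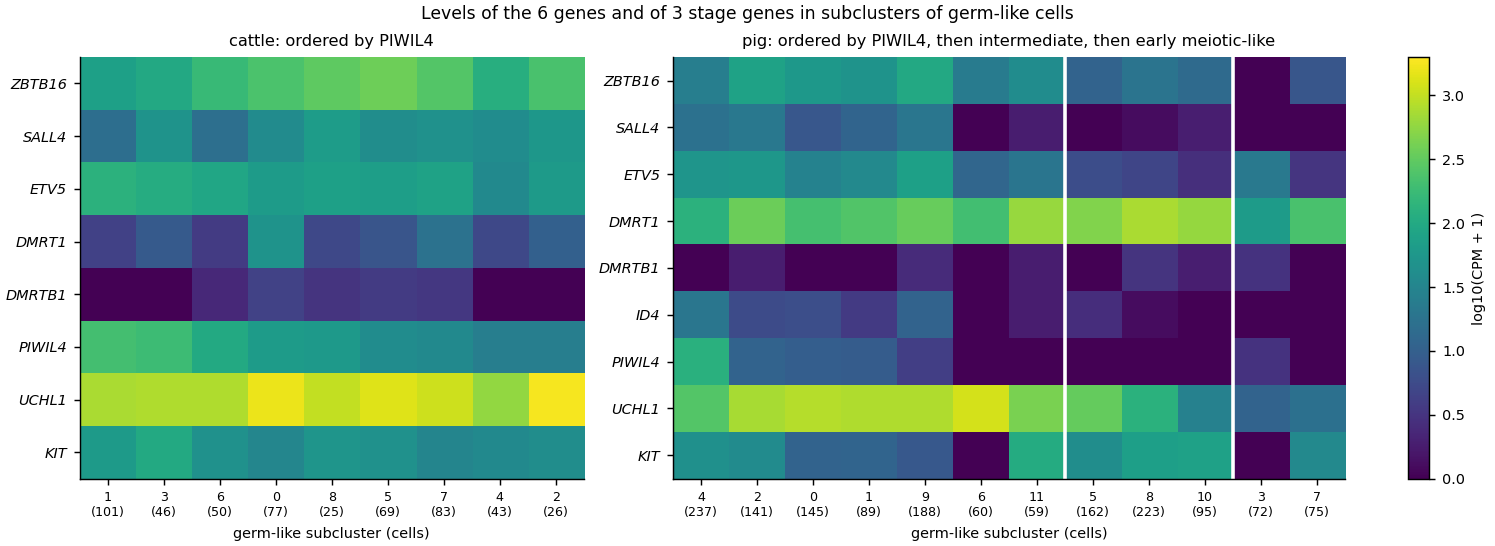
Colour gives log10(CPM + 1) of the 6 genes and of PIWIL4, UCHL1 and KIT in each subcluster of germ-like cells (columns, with the number of cells), ordered by PIWIL4; white lines set off the intermediate and early meiotic-like subclusters of pig. ZBTB16 is low at the PIWIL4-rich left edge in both species, at 75.1 CPM in cattle and 24.9 CPM in pig, and DMRT1 is brightest in the middle of the pig panel.

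Outside the germ line UMIs of the members were found at different levels in the somatic cell types. Free RNA was not subtracted from these levels: barcodes of at most 50 UMIs of cattle 1 to 3 held ZBTB16 at 18.7, 16.4 and 34.9 CPM and ETV5 at 5.91, 20.7 and 22.9 CPM. Levels at or below these cannot be read as expression, and its part in the somatic differences was not tested. Each type was tested against all other non-germ cells where at least 2 animals had 50 cells of it. In cattle 2 of 5 members (ZBTB16 and ETV5) were called in at least 1 of 5 types, where 49.1% of 13011 genes were, and in pig 3 of 6 (DMRT1, ETV5 and ZBTB16), where 19.9% of 13707 genes were. With so few members the levels say more than these counts.

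Among the somatic types tested in cattle, ZBTB16 was highest in myoid-like cells, the contractile and interstitial cells around the tubules. Its level there was 18.7, 44.1 and 51.2 CPM. It was 13.5, 16.5 and 22.6 CPM in Leydig-like, 7.58, 9.38 and 6.5 in Sertoli-like, 4.30, 4.93 and 7.28 in lymphocyte-like and 0, 0 and 4.05 CPM in macrophage-like cells. The myoid-like cells of cattle 2 and 3 stood above the barcodes of at most 50 UMIs of their animal. The Sertoli-like, lymphocyte-like and macrophage-like cells of these 2 animals stood below them, as did the Sertoli-like cells of cattle 1. In cattle 1 the macrophage-like 0 has a floor of 52.8 CPM, and the lymphocyte-like level rests on fewer than 3 UMIs. Their order against these barcodes was therefore not resolved in that animal. Myoid-like cells were higher by a log2 fold change of 1.79 (SE 0.37, edgeR adjusted p = 0.0096). Sertoli-like (-1.90, SE 0.40), lymphocyte-like (-1.59, SE 0.42) and macrophage-like cells (-3.05, SE 0.72) were lower, with edgeR adjusted p of 0.00652, 0.0198 and 0.0129. The levels of Leydig-like cells did not differ from the other non-germ cells beyond their spread (-0.01, SE 0.37). Without cattle 2 or without cattle 3 no member was called in any type of cattle. Calls over all genes fell too, from 3198 to 683 and 760 for myoid-like and from 4047 to 1428 and 1418 for Sertoli-like cells. For lymphocyte-like cells they fell from 3079 to 1209 and 1463, and for macrophage-like cells from 1929 to 1001 and 774. Endothelial-like cells reached 79.7 CPM in cattle 2, above the myoid-like cells of that animal. Cattle 2 was the only animal with 50 of them, so this type was not tested.

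Pig ZBTB16 was 105 and 26.5 CPM in endothelial-like cells of pigs 2 and 3, and in pig 2 that was above its own germ-like level of 59.3 CPM. Sertoli-like cells held 21.2, 43.1 and 34.8 CPM, myoid-like cells of pigs 2 and 3 held 38.8 and 25.8 CPM, Leydig-like cells 13.7, 7.49 and 15.2 CPM, and macrophage-like cells 0, 2.75 and 4.52 CPM. Only the macrophage-like difference was called (log2 fold change -2.60, SE 0.67, edgeR adjusted p = 0.0469), and that call was lost without any 1 of the 3 pigs. Over all genes the macrophage-like calls also fell, from 1010 to 197, 535 and 825 without pig 1, 2 or 3 in turn. The endothelial-like difference of 1.31 (SE 0.77, edgeR adjusted p = 0.399) was not called, but it was with the animal as a replicate block (1.23, edgeR adjusted p = 0.0114). The endothelial-like fit held pigs 2 and 3 alone, so the block left little replication to estimate the spread. With it 2816 of 13538 genes were called, against 345 without it.

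DMRT1 was highest in Sertoli-like cells among the named somatic types of pig with at least 50 cells. They had 52.5, 86.8 and 100 CPM, from 57, 875 and 112 UMIs, above the Leydig-like (10.3, 7.49 and 43.0 CPM), myoid-like (44.6 and 19.8 in pigs 2 and 3) and macrophage-like cells (0, 8.25 and 11.04) of the same animal. The log2 fold change against all other non-germ cells was 1.60 (SE 0.40, edgeR adjusted p = 0.0387). Of 5 alternatives this call held in 1, the replicate block (adjusted p = 0.00244), while the direction was the same in all 5. Over all genes that fit made 1584 calls, 3147 with the block and 80 to 1156 with 1 animal left out. The unnamed cells of pig 2, which include the cluster led by germ cell genes, had 122 CPM. In cattle DMRT1 in Sertoli-like cells was 25.8, 3.07 and 4.37 CPM and followed the animal rather than the cell type, since cattle 1 was the highest in each type.

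ETV5 was found in macrophage-like cells of pig at 9.49, 30.2 and 73.2 CPM (1, 11 and 146 UMIs), above every other named non-germ type only in pig 3. The log2 fold change was 2.64 (SE 0.59, edgeR adjusted p = 0.0258), and the call was lost without any 1 of the 3 pigs. Calls over all genes in that fit fell too, as given above. Myoid-like cells had 43.2 and 29.7 CPM in pigs 2 and 3, which was called only with the animal as a replicate block (log2 fold change 1.43, edgeR adjusted p = 0.028). The myoid-like fit held pigs 2 and 3 alone, so the block left little replication to estimate the spread. With it 1876 of 13538 genes were called, against 14 without it. Sertoli-like cells had 10.1, 4.17 and 11.6 CPM, and endothelial-like cells had 1.96 and 1.12 CPM in pigs 2 and 3. In cattle ETV5 was lowest in lymphocyte-like cells, with 0, 1.64 and 0.693 CPM (log2 fold change -2.62, SE 0.62, edgeR adjusted p = 0.0107), and Sertoli-like cells had 10.6, 7.44 and 10.97 CPM, which in cattle 2 and 3 was below the barcodes of at most 50 UMIs. With the replicate block, cattle ETV5 was also called higher in Sertoli-like cells (0.60, edgeR adjusted p = 0.048) and lower in Leydig-like cells (-1.48, edgeR adjusted p = 0.0148). The block raised calls over all 13011 genes too, from 4047 to 7281 for Sertoli-like and from 1758 to 4099 for Leydig-like cells.

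ID4 was found in pig Sertoli-like cells at 4.61, 7.54 and 27.7 CPM and in myoid-like cells of pigs 2 and 3 at 8.05 and 12.9 CPM. Endothelial-like cells of the same pigs had 0.982 and 0.746 CPM. The Sertoli-like difference was 2.30 on the log2 scale (SE 0.71, edgeR adjusted p = 0.072) and was called with the replicate block (2.22, edgeR adjusted p = 0.0095). Sertoli-like cells of pig 3 stood above its germ-like cells (4.88 CPM), and those of pigs 1 and 2 had 95% Poisson intervals that overlapped those of their germ-like cells. With the replicate block calls over all genes rose as well. Of 13707 genes they rose from 1584 to 3147 in Sertoli-like, 675 to 2854 in Leydig-like and 1010 to 3040 in macrophage-like cells. In the myoid-like and endothelial-like fits, of pigs 2 and 3 alone, they rose from 14 to 1876 and from 345 to 2816 of 13538. Among the members, 9 differences of pig were called that the fit without the block did not call. Beside those given above they were lower DMRT1 in Leydig-like (-1.40), macrophage-like (-1.90) and endothelial-like cells (-2.23), lower ETV5 (-3.67) and ID4 (-3.01) in endothelial-like cells, with edgeR adjusted p of at most 0.00965, and lower SALL4 in Sertoli-like cells, which held none (edgeR adjusted p = 0.0248). Of the 21 SALL4 UMIs in non-germ cells of pig, 18 lay in the unnamed cells of pig 2, which include the cluster led by germ cell genes, and the named non-germ types held 3.

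The germ-like effect was compared between the species for the 5 members with a symbol in both, since levels between species rest on different annotations. DMRT1 differed: its germ-like fold change was 3.57 higher in pig than in cattle on the log2 scale (SE 1.15, edgeR adjusted p = 0.0479), where 15.2% of 12770 genes were called. Without cattle 1, the animal with raised DMRT1 in all cells, the difference was 3.17 (SE 0.71, edgeR adjusted p = 0.013). It was not called when any 1 of the other 5 animals was left out (adjusted p = 0.0514 to 0.146) or with library size alone (2.79, adjusted p = 0.122). ZBTB16 (-1.39, SE 0.61, adjusted p = 0.14), SALL4 (-2.27, SE 0.92, adjusted p = 0.112) and ETV5 (-1.22, SE 0.61, adjusted p = 0.198) had smaller fold changes in pig and were not called. With the replicate block ZBTB16 was called (-1.25, edgeR adjusted p = 0.0188), and with library size alone ZBTB16, SALL4 and ETV5 were. Species, age, breed, annotation, germ cell stage mix and the headers' Cell Ranger version (named for pig alone) cannot be told apart in this comparison. Of the 1546 pig germ-like cells 147 were early meiotic-like and 480 intermediate. No cattle cells were early meiotic-like, and by the same rule 119 of 520 would be intermediate. The part of this mix in the differences was not tested.

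Relatives of the 6 genes (other ZBTB, ID, DMRT, SALL and ETV genes) moved in both directions. Germ-like cells of cattle had 4 higher and 6 lower among 15 relatives tested, where 23.1% of all genes were higher and 26.7% lower, with a median log2 fold change of -0.61 against -0.17 over all genes, and those of pig had 2 higher and 9 lower among 16 (-1.74 against -0.08), where 16.8% and 20.3% of all genes were. In cattle DMRTC2, a DM domain gene, was higher by 6.04 (SE 0.45), ETV4, the close relative of ETV5, by 4.15 (SE 0.88) and ZBTB32 by 4.51 (SE 1.08), all with edgeR adjusted p of at most 0.00688. In pig ID3 and ID2, the relatives of ID4, were lower by 4.75 and 4.19 on the log2 scale (edgeR adjusted p = 0.00208 and 0.00302), while ID4 itself did not differ. DMRT2 had 11 UMIs in pig germ-like cells and none elsewhere, at least 5.91-fold higher (edgeR adjusted p = 0.04). DMRT2 passed the filter on counts by its germ-like UMIs alone and would not have been tested without them. Its call, counted among the higher relatives of pig, therefore rests on few UMIs and on that filter. At the early meiotic-like stage ZBTB32 was higher by 4.06 (SE 0.55, edgeR adjusted p = 4.15e-11), opposite to ZBTB16, and SALL2 fell from 78 UMIs to 0, at least 1.82-fold (edgeR adjusted p = 0.0329).

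Among other transcription regulators of germ cells, germ-like cells of cattle had 17 higher and 2 lower of 23 (median 2.56 against -0.17), beside 23.1% and 26.7% of all genes. Those of pig had 14 higher and 4 lower of 27 (median 1.61 against -0.08), beside 16.8% and 20.3%. In cattle ISL1, a LIM homeobox factor, was higher by 7.12 (SE 0.53), UTF1, a chromatin factor of undifferentiated cells, by 7.08 (SE 0.54) and DBX2, a homeobox gene, by 7.01 (SE 0.57), each with an edgeR adjusted p of at most 2.33e-05. In pig the RNA-binding protein gene LIN28B was higher by 7.08 (SE 0.94, edgeR adjusted p = 0.00125), and BCL6B was lower by 5.32 on the log2 scale (edgeR adjusted p = 0.00965). Pig PAX7 had 17 UMIs in germ-like cells and none elsewhere (at least 9.14-fold, edgeR adjusted p = 0.0395). Like DMRT2, PAX7 passed the filter on counts by its germ-like UMIs alone, and its call has the same limit. At the early meiotic-like stage 8 of 24 were lower and 3 higher, where 7.84% of all genes were lower and 5.35% higher. ISL1 (514 UMIs to 0, at least 11.97-fold), UTF1 (387 to 0, at least 9.01-fold) and LHX1 (105 to 0, at least 2.44-fold) were lower together with ZBTB16 and SALL4.

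The genes with the pattern most like each member were found by correlation of log2(CPM + 10) over 19 sums of 7 cell types in cattle and 17 in pig, among 6980 and 8347 genes. These sums share libraries, so the values are a description. For SALL4 they were DDX43, SYCE3 (r = 0.997 each) and ENSBTAG00000000623 (0.996) in cattle and ENSSSCG00000034709 (0.965), MAEL (0.962) and TRAP1 (0.9497) in pig, of which DDX43, SYCE3 and MAEL are germ cell genes. For DMRT1 in pig they were ELAVL4 (0.961), PRDX4 (0.948) and COX16 (0.944). For ZBTB16 they were PIK3R3 (0.949), TLN2 (0.941) and UTP11 (0.940) in cattle but CHD6 (0.889), RAB11B (0.886) and IFT122 (0.881) in pig. ETV5 was nearest to PDCD5 (0.951), WASHC3 (0.947) and UBE2L3 (0.944) in cattle, and to DSE (0.888), PTPRJ (0.814) and GGH (0.792) in pig. ID4 in pig was nearest to OCRL (0.866), ENSSSCG00000001934 (0.850) and PHGDH (0.824). Cattle DMRT1, whose level followed the library, was nearest to ENSBTAG00000004526 (0.923), RPL7L1 (0.923) and ENSBTAG00000045497 (0.903), and DMRTB1 had too few UMIs for its nearest genes (ENSBTAG00000046047, 0.976, in cattle and RRP1B, 0.872, in pig) to be read.

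Single germ-like cells often held UMIs of more than 1 member. In cattle 322 of 520 germ-like cells held ZBTB16, 248 ETV5 and 136 SALL4, and 99 of the 136 SALL4 cells (72.8%) also held ZBTB16, with 45.5%, 65.7% and 78.9% in cattle 1 to 3. Of all germ-like cells of these animals 32 of 83, 125 of 219 and 165 of 218 held ZBTB16, so the shares among SALL4 cells were not far above these. In pig 43.7%, 81.9% and 88.2% of the germ-like cells of pigs 1 to 3 held DMRT1, at a median of 2825.5, 15346 and 14796 UMIs. It was found in 57.4%, 96.8% and 98.8% of their ZBTB16 cells (54, 95 and 257 cells) and in 58.3%, 95.2% and 97.0% of their SALL4 cells (12, 42 and 66 cells). The shallow pig 1 had the lowest share each time. Of the 90 pig cells with ID4, 8 were from pig 1, and 0%, 53.1% and 80.0% of those of pigs 1 to 3 held ZBTB16. Among all their germ-like cells 54 of 638, 95 of 215 and 257 of 693 held ZBTB16, and the depth of the cells was not matched. No UMI of any member was found in 91 cattle cells (17.5%) and 395 pig cells (25.5%), with 33.7%, 21.0% and 7.80% in cattle 1 to 3 and 48.3%, 10.7% and 9.24% in pigs 1 to 3, where the animal with the shallowest germ-like cells had the highest share.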

How the data were processed

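The values are raw UMI counts per gene and cell barcode that the authors deposited, made with Cell Ranger 2.1.0 on ARS-UCD1.2 and Sscrofa11.1 per the labels' processing notes, whereas the headers of the pig matrices name version 3.0.2 and those of cattle name none. The authors did not normalise these counts. The cattle files hold every barcode and the pig files those of at least 500 UMIs. The genes were proposed, and the gene lists chosen, with earlier results of these data known.

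Barcodes passed above the 99th percentile of the top 3000 totals divided by 10 (460 to 3458 UMIs) and 200 genes, and the top 0.8% per 1000 cells by doublet score were removed. Cells were clustered with scanpy 1.11.5 (2000 variable genes, 30 components, 15 neighbours, Leiden resolution 1). The variable genes left out the 6 genes, their lists and a set of fertility genes. A cluster took a cell type's name from at least 3 markers that were in 5% of its cells and 2-fold over the median cluster with 10 CPM added. Parts of this rule were set after clusters were seen. Germ-like cells were clustered again, with stage markers allowed among the variable genes, and a subcluster was early meiotic-like where its meiotic genes averaged a log2 fold of at least 1.

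Counts were summed per animal and cell class and tested with edgeR 4.0.16 in R 4.3.3 (glmQLFit and glmQLFTest, TMM, at least 10 counts, Benjamini-Hochberg over all genes). In simulated data this test recovered few small changes. Far fewer genes were changed there (66 or 67 per size) than were called in the real fits, and the sums were drawn independently. The shares are therefore those of the simulation and do not measure the power of the real tests. Of log2 changes of 1 it called 8.96% (cattle germ-like), 4.48% (pig germ-like) and 5.97% (pig stage), and of log2 changes of 2 it called 55.2%, 49.3% and 37.3%. A missing call still does not show that a gene was unchanged. A stage sum needed 20 cells and a somatic sum 50. DESeq2 1.42.0, the animal as a replicate block, library size alone, no filter on counts, other cell filters, clusters and names, and leaving out each animal were alternatives. Sums of an animal come from 1 library and deviated together (r = 0.389 to 0.476 over 8935 genes in cattle, 0.370 to 0.509 over 10390 in pig), so the block pairs them. The main fit does not pair them. Replicates are animals. Intervals are exact 95% Poisson intervals of the counts, floors are 3 UMIs, and both cover counting error only. Named were all 6 genes, the called genes with the 3 largest absolute fold changes of each other list, and the 3 genes most correlated with each member among those averaging 10 CPM. Promoters and gene positions are from RefSeq on Sscrofa11.1 and matched all 6 genes. The promoter of 1 of them is not reported here. Cattle sequences were not used here.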

Additional observations from a re-analysis of the deposited data

Results flagged for a closer look

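The germ-like fold change differed between pig and cattle, by a test of the interaction itself (edgeR, Benjamini-Hochberg), for 6 of the 47 members, relatives and other regulators tested (12.8%), where 15.2% of 12770 genes were called. DMRT1 was 3.57 higher in pig on the log2 scale (SE 1.15, adjusted p = 0.0479) and STRA8, the retinoic acid target at meiotic entry, 2.32 higher (SE 0.65, adjusted p = 0.0241). ETV4 was lower in pig by -5.07 (SE 1.18, adjusted p = 0.00951), EGR4 by -3.26 (SE 0.73, adjusted p = 0.00772), TCF3 by -2.48 (SE 0.46, adjusted p = 0.00273) and UTF1 by -2.37 (SE 0.67, adjusted p = 0.027).

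UMIs of the members also appeared in cells outside the comparisons between named types. The unnamed cells of pig held 12, 178 and 18 DMRT1 UMIs in pigs 1 to 3. In pig 2 they held 67 of ZBTB16, 30 of ETV5, 18 of SALL4 and 6 of ID4, and in pig 3 they held 6 of ZBTB16, 9 of ETV5 and 4 of ID4. ZBTB16 had 4 UMIs in unnamed cells of cattle 2 and 17 in those of cattle 3. Barcodes of at most 50 UMIs, which the cattle files keep, held 19, 27 and 29 ZBTB16 UMIs in cattle 1 to 3, 6, 34 and 19 of ETV5, and 18, 4 and 5 of DMRT1. With 3 animals per group no animal was tested as an outlier.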

How the results depend on the processing

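The counts of members called higher in germ-like cells (cattle 4, pig 2) stayed within 1.5 times under every alternative run. The stage count in pig (4 members) was 2 with DESeq2, which gave no adjusted p for SALL4, ID4 and DMRTB1, and 0 with the cutoff of meiotic UMIs, also with each animal left out. That cutoff put most germ-like cells in its high group, so it does not compare the same stages. The somatic count was 2 in cattle (0 to 2 with 1 animal left out) and 3 in pig (5 with the replicate block, 0 to 1 with 1 animal left out). Calls over all genes in the somatic fits also rose with the block. The species count of 1 was 2 with the replicate block, 3 with library size alone and 0 to 1 with 1 animal left out. The causes were not tested. Directions turned for DMRT1 in cattle germ-like cells (0.40 with library size alone), for ID4 in pig (0.073 with DESeq2, 0.35 with library size alone, 0.019 with doublets kept, 0.72 with markers set against the remaining cells, -0.28 to 0.27 with 1 animal left out), for DMRT1 at the pig stage under the meiotic UMI cutoff (0.15, and 0.052 to 0.31 with an animal left out) and ETV5 there (0.23 without pig 3), and for DMRTB1 between species (-2.47 to 1.43 with 1 animal left out). Over all genes, leaving out an animal gave 3585 to 8435 calls in cattle germ-like cells against 7080, 2227 to 3495 in pig against 5647, and 624 to 1922 between species against 1944. The replicate block gave 2926 stage calls and DESeq2 755 against 1755, and the block 3503 between species. Blocked values that changed a call stand beside the results, and the block changed no other call. Without TMM the split of higher and lower genes was 988 and 741 at the pig stage against 712 and 1043, and 527 and 2220 between species against 1131 and 813. Cattle had no early meiotic-like subcluster, so the stage alternatives that need one could not be run. The meiotic UMI cutoff there put 464 of 520 germ-like cells in its high group and called 0 members and 0 genes (499 at an unadjusted p under 0.05, edgeR). Leaving an animal out was not possible in the pig stage test, which had 2. Counts limit what could be detected for DMRTB1 and ID4, which had 19 and 99 UMIs over all pig germ-like cells.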
